A study of Mus musculus with 4 samples.

Results

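The genes described here are 7 orphan nuclear receptors that are reported to act on Pou5f1, the gene of the pluripotency factor Oct4. They are the COUP-TF family (Nr2f1, Nr2f2 and Nr2f6), the germ cell nuclear factor GCNF (Nr6a1), the liver receptor homologue LRH-1 (Nr5a2) and the testicular receptors TR2 and TR4 (Nr2c1 and Nr2c2). They were taken by gene symbol from the array annotation. All 7 had a probe set of their own, 1 each, among 22180 genes with a value, and all 7 were past the filter on low signals that left 18310 genes.

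RNA of P19 cells, which derive from a mouse teratocarcinoma and leave the pluripotent state in retinoic acid, was measured on 4 Affymetrix arrays with 1 array per condition. Wild-type P19 cells were compared with a P19 clone carrying the stably integrated vectors pBI-EGFP-FLAG-mCtcfl and pTA-N, called the Ctcfl line here. In this Tet-Off clone doxycycline holds Ctcfl off, and both arrays of the line were made 2 days after the 2 µg/ml doxycycline was withdrawn. Both wild-type samples are labelled with 2 µg/ml doxycycline, whereas the growth description gives them ordinary medium, and this conflict was not settled. Within each line, undifferentiated cells had received ethanol as vehicle and differentiated cells 10 µM retinoic acid for 4 days. The line is a single clone, so its clonal origin, vectors, doxycycline history and Ctcfl cannot be told apart.

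Nuclear receptors are transcription factors with a zinc finger DNA-binding domain that reads short motifs related to AGGTCA, alone or as repeats. Orphan receptors of this class have no established ligand, or were named before one was found. In pluripotent cells the Pou5f1 promoter is an established meeting point for them: LRH-1 and its relative SF-1 activate it, while COUP-TF receptors and GCNF silence it when cells differentiate. TR2 has been reported both to activate and to repress Pou5f1, depending on its modification.

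The sequence these receptors compete for is shown first, followed by a window for each of the 3 receptor genes that rose with retinoic acid. Each is the 250 bases before the most upstream start with a RefSeq promoter window on GRCm38.p6, written 5′ to 3′ on the gene's strand. For Nr2c1 the RefSeq gene begins earlier, at chr10:94147542, so its window lies inside the gene. Capitals mark, on either strand, the core motif AGGTCA and its common variants GGGTCA (first base changed), AGTTCA (inner base changed) and GGTTCA (both changed). The Pou5f1 window is chr17:35505782-35506031 (+), the Nr2f1 window chr13:78198874-78199123 (-), the Nr2f2 window chr7:70366747-70366996 (-) and the Nr2c1 window chr10:94147681-94147930 (+).
Pou5f1: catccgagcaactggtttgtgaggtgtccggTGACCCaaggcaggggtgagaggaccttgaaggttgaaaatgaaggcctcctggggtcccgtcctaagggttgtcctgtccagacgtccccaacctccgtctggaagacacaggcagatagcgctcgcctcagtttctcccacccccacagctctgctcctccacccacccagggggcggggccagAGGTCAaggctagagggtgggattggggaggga
Nr2f1: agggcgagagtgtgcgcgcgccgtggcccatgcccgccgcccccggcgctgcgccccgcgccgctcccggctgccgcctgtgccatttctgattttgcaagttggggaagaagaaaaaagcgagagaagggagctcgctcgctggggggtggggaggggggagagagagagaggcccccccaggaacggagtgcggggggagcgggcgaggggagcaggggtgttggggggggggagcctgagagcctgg
Nr2f2: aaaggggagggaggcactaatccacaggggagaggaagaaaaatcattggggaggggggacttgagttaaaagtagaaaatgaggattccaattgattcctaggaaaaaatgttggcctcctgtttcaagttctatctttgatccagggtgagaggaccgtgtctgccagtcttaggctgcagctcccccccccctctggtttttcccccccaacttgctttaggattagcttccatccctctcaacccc
Nr2c1: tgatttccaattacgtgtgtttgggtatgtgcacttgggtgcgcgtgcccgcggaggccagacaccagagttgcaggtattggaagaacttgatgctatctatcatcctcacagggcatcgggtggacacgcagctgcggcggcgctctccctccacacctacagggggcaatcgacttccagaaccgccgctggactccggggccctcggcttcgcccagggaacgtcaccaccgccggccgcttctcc

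The Pou5f1 window held AGGTCA on the strand of the gene at positions -33 to -28 from the start, and GGGTCA on the opposite strand at -219 to -214. AGGTCA was present in 4607 of the 32851 windows of the same length in the RefSeq table, and GGGTCA in 11.6% of them. AGTTCA was present in 11.8% and GGTTCA in 8.85%, and any of the 4 motifs in 38.6%. The exact tandem repeat AGGTCAAGGTCA, the motif that GCNF is known to prefer, was in 2 windows (0.00609%), and the exact repeat spaced by 1 base, AGGTCANAGGTCA, in 11 (0.0335%). Neither is in the Pou5f1 window. The motif CAAGGTCA, read by LRH-1 and SF-1 and overlapping AGGTCA, was in 1.33% of windows and not in that of Pou5f1. None of the 4 short motifs is in the windows of Nr2f1, Nr2f2 or Nr2c1 printed here. These are exact matches of letters only. Imperfect repeats and sites were not searched, so a window without a match may still hold a binding site.

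Among the receptors, retinoic acid went with higher Nr2f2, Nr2f1 and Nr2c1. In a limma fit over all genes, which adds a term for the line to one for retinoic acid, Nr2f2 rose 5.12-fold, Nr2f1 3.07-fold and Nr2c1 1.64-fold. The other 4 did not pass an adjusted p of 0.05, and 0 of 7 fell. The background rate of calls in this direction was 4.21% (770 of 18310 genes), against 3 of 7 here. At an unadjusted p under 0.05 in either direction, 6 of 7 receptors passed, all but Nr2c2, where the background was 23.5%. Of those 6, Nr6a1 was lower with retinoic acid (log2 -0.39) and the others higher. With a variance prior that follows mean expression 4 of 7 passed in this way, and 4382 of 18310 genes. The limma fit has 1 residual degree of freedom per gene and uses the disagreement between the lines as its error. Nothing in the labels ties the 4 arrays to repeat cultures. The median effect of the 7 receptors was log2 0.55, beside -0.05 over all genes.

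As a check of the material, the targeted gene Ctcfl was at log2 7.86 and 7.13 on the wild-type arrays, and at 10.41 and 9.56 on those of its own line, undifferentiated first. Its paralog Ctcf, at log2 10.61 to 10.87, did not pass for the line (adjusted p = 0.784 in limma). Array medians lay between 6.95 and 6.96. Olfactory receptor genes, a guide to background, had medians between 4.68 and 4.78, and the lowest signal of any of the 7 receptors was 6.77. That signal, of Nr2f2 in the undifferentiated Ctcfl line, was below the array medians. Of the olfactory receptor genes 21.9% were past the filter, so passing it does not show expression. Whether the low signals of Nr2f1, Nr2f2 and Nr5a2 stand above background was not tested. Of 34 pluripotency genes past the filter, 14 fell with retinoic acid, 1 rose and 19 did not pass in limma. Of 30 genes listed as responding to retinoic acid, 22 rose, 1 fell and 7 did not pass, led by Tshz1, Hoxa5 and Meis1, transcription factor genes of the trunk and hindbrain, with 33.3-fold, 28.0-fold and 28.0-fold. Over all genes 4.21% rose and 2.44% fell. Both lists were chosen with earlier results of these data known, so their counts are no independent check.

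**Figure D1:**
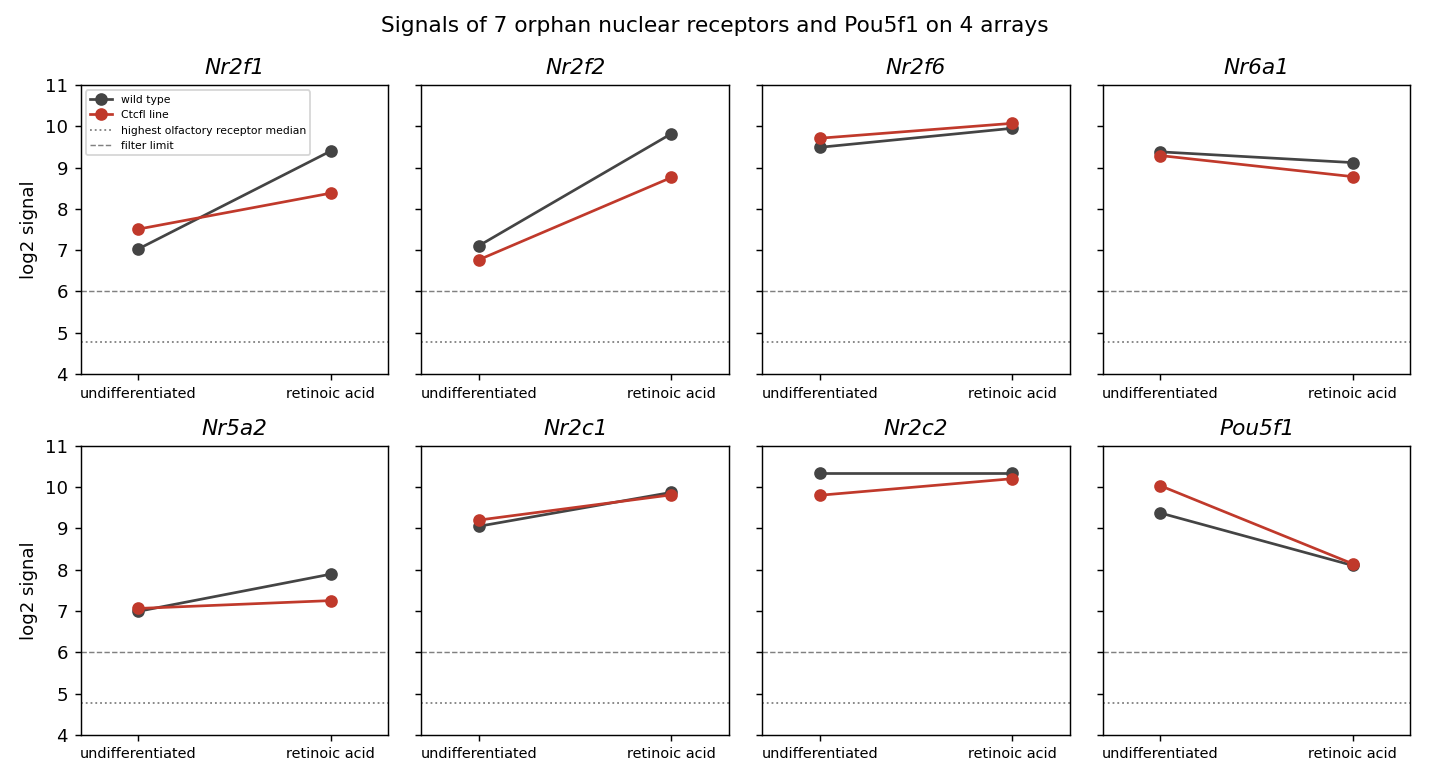
Log2 signal (y axis) of the 7 receptors and Pou5f1 in undifferentiated and retinoic acid-treated cells, with 1 point per array and a line joining the 2 arrays of each cell line. The dashed line is the filter limit of 6 and the dotted line the highest olfactory receptor median, 4.78; Nr2f1 and Nr2f2 climb in both lines and end higher in wild type, whereas Pou5f1 descends.

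Nr2f2 encodes COUP-TFII, a receptor of mesenchyme, veins and lymphatics. Its log2 signal was 7.11 in undifferentiated wild-type cells, 9.82 in wild-type cells with retinoic acid, 6.77 in the undifferentiated Ctcfl line and 8.76 in that line with retinoic acid. Both retinoic acid arrays were well above both undifferentiated arrays. The difference with retinoic acid was 6.58-fold in wild type and 3.99-fold in the Ctcfl line. Averaged over the lines it was log2 2.36 ± 0.20 (SE, adjusted p = 0.00249 in limma), higher in 2 of 2 lines. In wild type it ranked 37 from the top among 18310 genes, and in the Ctcfl line 106.

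Nr2f1 encodes COUP-TFI, a receptor of the developing forebrain and neural crest. Its signals were log2 7.03 and 9.40 in wild type and 7.51 and 8.38 in the Ctcfl line, undifferentiated first. The retinoic acid arrays again lay above the undifferentiated ones, but the Ctcfl line covered much less of the distance. The difference was 5.16-fold in wild type and 1.82-fold in the Ctcfl line. Their average was log2 1.62 ± 0.33 (SE, adjusted p = 0.0391 in limma), higher in 2 of 2 lines; with no filter on low signals, where more genes share the adjustment, it missed the threshold (adjusted p = 0.0519). Nr2f1 ranked 62 from the top in wild type and 809 in the Ctcfl line.

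Nr2f6 encodes EAR-2, the most distant relative of the COUP-TF family. On the 4 arrays it was at log2 9.49 and 9.95 in wild type and 9.71 and 10.07 in the Ctcfl line, undifferentiated first. All 4 values lay within 0.57, and no step between neighbouring values exceeded the technical SD of such a step. The retinoic acid differences, log2 0.45 in wild type and 0.35 in the Ctcfl line, were above their technical SDs of 0.303 and 0.331. The averaged retinoic acid effect was log2 0.40 ± 0.15 (SE, adjusted p = 0.169 in limma).

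The technical SD just used comes from genes with several probe sets. For such a gene the log2 differences between 2 arrays vary from probe set to probe set, with an SD between 0.226 and 0.331 in the 4 paired comparisons, over 874 genes. It measures disagreement between probe sets of a gene, leaves out error that they share on an array, and says nothing of variation between cultures.

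Nr6a1 encodes GCNF, which silences Pou5f1 in the differentiating embryo and is known to rise early after retinoic acid in cultured pluripotent cells. The arrays gave log2 9.38 and 9.12 in wild type and 9.29 and 8.78 in the Ctcfl line. It was the 1 receptor of the 7 whose retinoic acid arrays both lay below the undifferentiated arrays. The differences were log2 -0.26 and -0.52, and their average was -0.39 ± 0.16 (SE, adjusted p = 0.199 in limma). Only day 4 was measured. The wild-type difference was smaller than its technical SD of 0.303, and that of the Ctcfl line larger than its technical SD of 0.331.

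Nr5a2 encodes LRH-1, which sustains Pou5f1 in the epiblast. Its signals were log2 6.99 and 7.89 in wild type and 7.06 and 7.25 in the Ctcfl line. The wild-type array with retinoic acid stood apart, and the other 3 lay within steps smaller than the technical SD. The difference was 1.86-fold in wild type and 1.14-fold in the Ctcfl line, with an average of log2 0.55 ± 0.20 (SE, adjusted p = 0.17 in limma).

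Nr2c1 encodes TR2. TR2 mRNA was at log2 9.05 and 9.87 in wild type and 9.20 and 9.81 in the Ctcfl line, so the arrays formed a low undifferentiated pair and a high retinoic acid pair. Within each pair the lines differed by less than the technical SD. The averaged effect was log2 0.71 ± 0.15 (SE, adjusted p = 0.0456 in limma), higher in 2 of 2 lines. It missed the threshold with no filter (adjusted p = 0.0572) and with a variance prior that follows mean expression (adjusted p = 0.0602).

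Its partner Nr2c2, which encodes TR4, had signals of log2 10.35 on both wild-type arrays. In the Ctcfl line they were 9.80 and 10.20. The undifferentiated Ctcfl line was the low array and the other 3 were within the technical SD of each other. The averaged retinoic acid effect was log2 0.20 ± 0.17 (SE, adjusted p = 0.496 in limma).

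Counted by their arrays alone, 5 of 7 receptors had both retinoic acid arrays above both undifferentiated arrays, and 1 of 7 had both below. Over all genes 22.8% were arranged the first way and 30.6% the second, so a separation of this kind was common. At 2-fold, 2 of 7 receptors were higher in wild type (background 2.58%) and 1 of 7 in the Ctcfl line (background 3.21%). None of the 7 was 2-fold lower in either line, where the background was 2.62% and 1.50%.

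**Figure D2:**
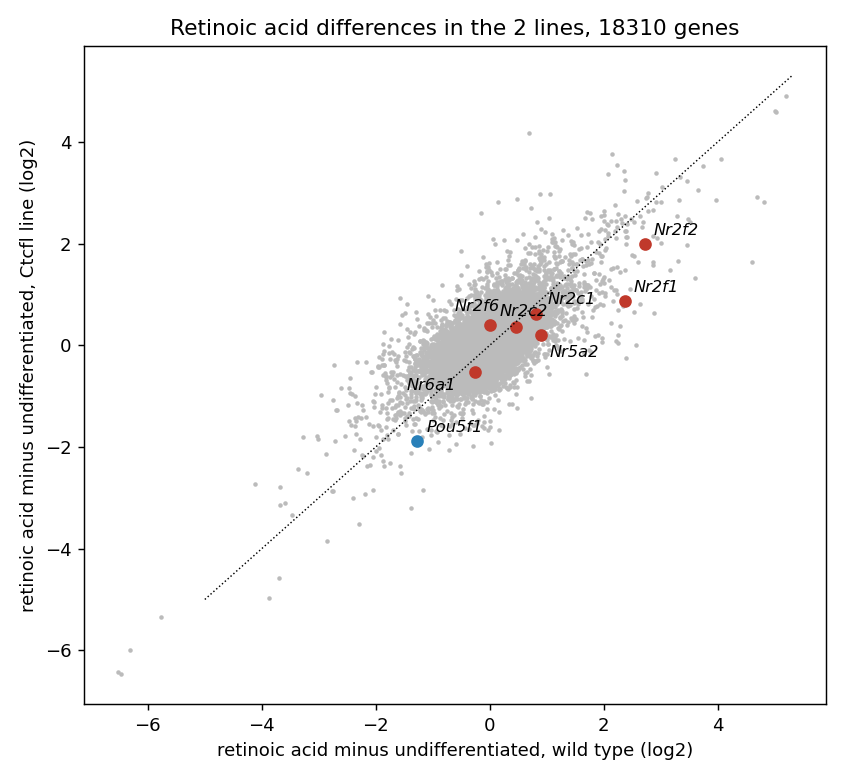
Retinoic acid difference in wild type (x axis, log2) against that in the Ctcfl line (y axis, log2) for 18310 genes in grey, the 7 receptors in red and Pou5f1 in blue, with a dotted line where both are equal. Nr2f1 (2.37 and 0.87) and Nr2f2 (2.72 and 2.00) lie to the right of most genes and below the line. The other 5 receptors lie further left.

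Pou5f1 itself had signals of log2 9.37 and 8.10 in wild type and 10.03 and 8.14 in the Ctcfl line, undifferentiated first. After retinoic acid the lines were closer than the technical SD, while undifferentiated cells of the Ctcfl line were higher by log2 0.66. The difference with retinoic acid was log2 -1.27 in wild type and -1.89 in the Ctcfl line, and their average was -1.58 ± 0.19 (SE, adjusted p = 0.00743 in limma). The line with the larger Pou5f1 difference was therefore the one with the smaller Nr2f1 and Nr2f2 differences. With 2 lines this is a description only.

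Of 6 genes reported to be repressed by GCNF, 4 fell with retinoic acid and 2 did not pass. The 4 were Pou5f1, Nanog, the Nodal coreceptor gene Tdgf1 and the DNA methyltransferase gene Dnmt3b, with effects of log2 -1.58, -1.97, -4.13 and -2.82 (adjusted p between 0.000529 and 0.00743 in limma). The oocyte factors Gdf9 and Bmp15 made up the rest. The background rate of falling genes was 2.44%, but these are also pluripotency genes, and the list was written with their values known.

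Of 7 measured genes reported to be bound by LRH-1, 3 fell, 1 rose and 3 did not pass (background 2.44% falling and 4.21% rising). Pou5f1, Nanog and Nr0b1 fell, and the T-box gene Tbx3 rose 3.01-fold (adjusted p = 0.0166 in limma). Nr0b1 encodes DAX-1, a receptor without a DNA-binding domain of the usual kind that represses LRH-1 and SF-1. It fell by 2.41 on the log2 scale (adjusted p = 0.00719).

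Among 28 measured partners and cofactors of these receptors, 3 rose, 2 fell and 23 did not pass (background 4.21% rising and 2.44% falling). Zfpm1, a GATA cofactor, rose 3.08-fold, Nrip1, a corepressor of nuclear receptors, 3.02-fold, and the corepressor gene Lcor 1.64-fold (adjusted p = 0.0045, 0.0042 and 0.041 in limma). Dnmt3b and Nr0b1 were the 2 that fell. Bcl11a, which encodes a COUP-TF-interacting protein, had differences of log2 -1.17 (wild type) and 0.03 (Ctcfl line), with an adjusted p of 0.274. The median effect of the list in the 2 lines was log2 -0.02 and 0.01.

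The rest of the nuclear receptor superfamily gives the setting. Of 49 mouse receptor genes listed, 45 had a probe set of their own and 44 were past the filter. Ordered by retinoic acid effect, Nr2f2 was at place 2 and Nr2f1 at place 3 of the 44, behind the retinoic acid receptor gene Rarb (log2 3.34 ± 0.15, SE, adjusted p = 0.000402 in limma). Nr2c1 was at place 6 and Nr6a1 at place 38. Of the other 37 receptors, 3 rose and 6 fell (background 4.21% rising and 2.44% falling).

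The 3 were Rarb, Rxra, which encodes a shared dimer partner, and the immediate early gene Nr4a2. The 6 were Nr0b1, Nr5a1, Rxrg, Rarg, Thrb and the clock gene Nr1d1, with effects between log2 -2.41 and -0.93. Nr5a1 encodes SF-1, the close relative of LRH-1 that activates Pou5f1 in embryonal carcinoma cells. It was at log2 9.04 and 7.24 in wild type and 9.38 and 7.62 in the Ctcfl line, undifferentiated first. It fell by 1.78 on the log2 scale (adjusted p = 0.00199 in limma), in 2 of 2 lines, while Nr5a2 did not pass.

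**Figure D3:**
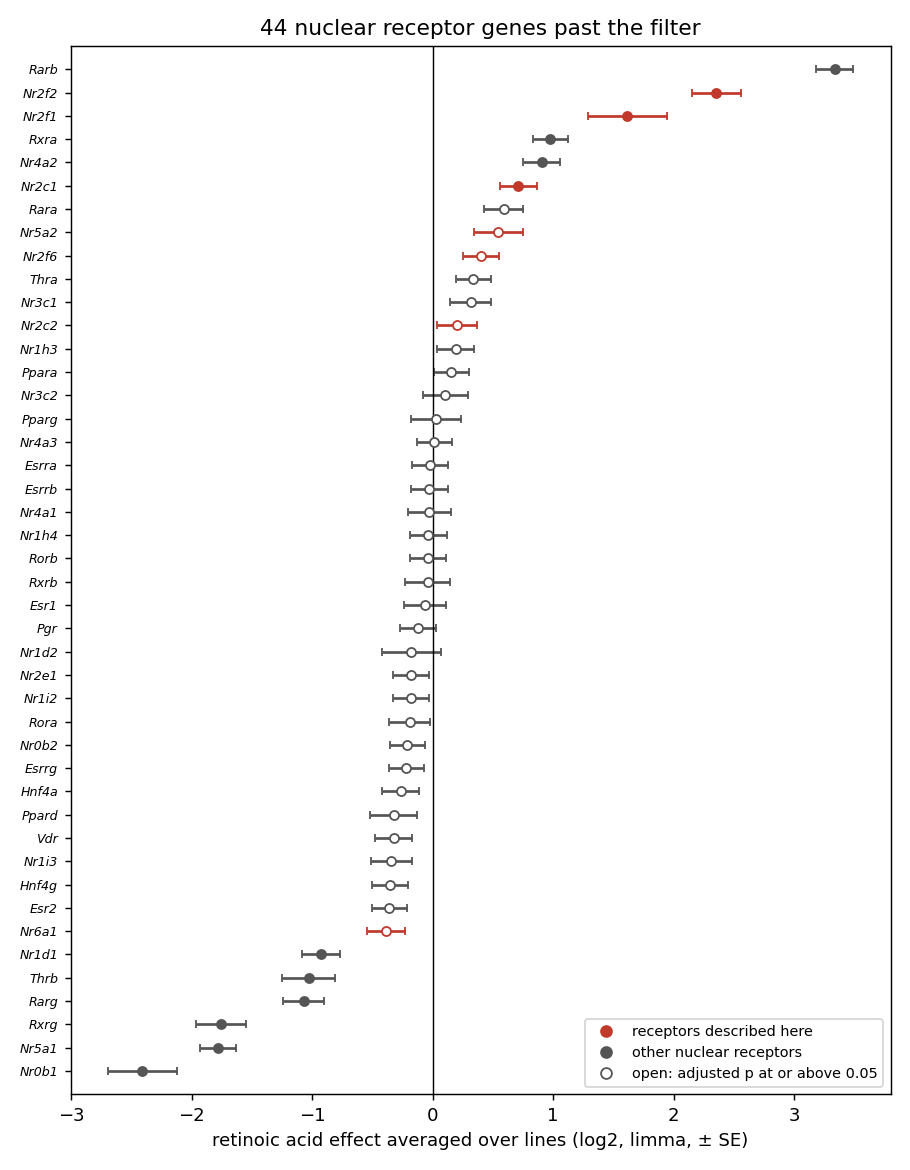
Retinoic acid effect averaged over the lines (x axis, log2, points with limma SE) for the 44 nuclear receptor genes past the filter, ordered by effect, with the 7 receptors described here in red. Filled points passed an adjusted p of 0.05: Nr2f2, Nr2f1 and Nr2c1 on the right, and none of the 7 on the left.

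The next comparison asks whether the receptors differed between the lines. In limma 0 of 7 receptors changed with the line (lowest adjusted p = 0.388, for Nr2f2), and 1 of 7, Nr2f2, had an unadjusted p under 0.05, also when the variance prior followed mean expression. The background rate of calls was 0.0437% (8 of 18310 genes), and 9.81% of genes had an unadjusted p under 0.05. In undifferentiated cells 0 of 7 receptors were 2-fold apart (background 1.82%), with log2 differences between -0.54, for Nr2c2, and 0.48, for Nr2f1.

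After retinoic acid Nr2f1 and Nr2f2 were lower in the Ctcfl line. Nr2f1 was 2.03-fold lower and Nr2f2 2.08-fold lower, so 2 of 7 receptors were past 2-fold (background 0.399% lower). No receptor was 2-fold higher (background 0.83%). The log2 differences, -1.02 and -1.06, exceeded the technical SD of 0.226, but there was 1 array on each side and no test of conditions. Nr5a2 followed with -0.63. Among the 44 receptor genes these were the 3 lowest values of this comparison, and among all genes Nr2f2 ranked 65 and Nr2f1 71 from the bottom. The other 4 receptors lay between log2 -0.34 and 0.12.

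Of the 7 genes reported to be bound by LRH-1, 3 were 2-fold higher in the Ctcfl line after retinoic acid and 0 lower (background 0.83% higher). All 3 are also in the pluripotency list, where 8 of 34 genes were 2-fold higher and 0 lower. The LRH-1 genes were Nr0b1 (log2 6.94 in wild type and 8.88 in the Ctcfl line), Nanog (8.47 and 10.05) and Tbx3 (9.71 and 10.90). None of the 3 changed with the line in limma (adjusted p = 0.305, 0.227 and 0.455), and the other 4, Pou5f1 among them, were less than 2-fold apart.

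The response to retinoic acid in the Ctcfl line minus that in wild type was log2 -1.50 for Nr2f1, the lowest among the 44 receptor genes. It was -0.72 for Nr2f2 and -0.70 for Nr5a2. Nr2f1 was the 1 receptor of 7 past 2-fold (background 0.754% lower and 1.90% higher). This difference was below 0 for 6 of 7 receptors, with a median of log2 -0.26 beside -0.01 over all genes; Nr2c2, at 0.39, was the exception. Its technical SD was 0.321.

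**Figure D4:**
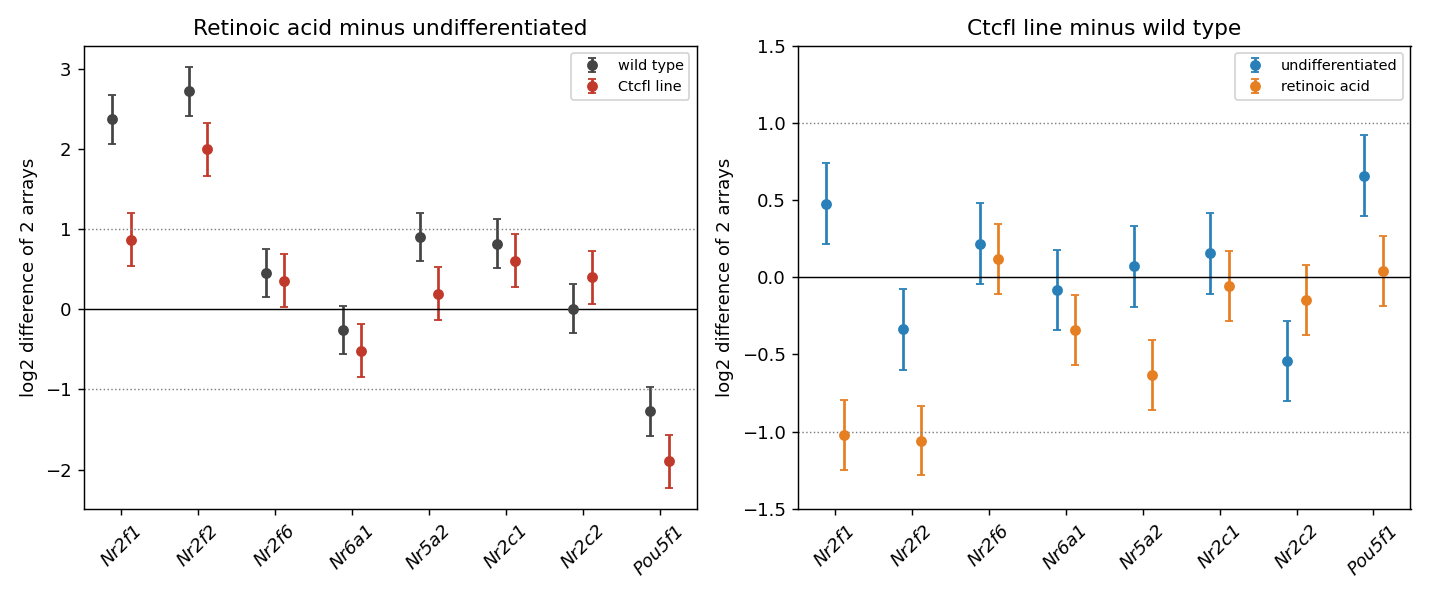
Log2 differences of single arrays for the 7 receptors and Pou5f1: retinoic acid minus undifferentiated in each line (left), and Ctcfl line minus wild type in each state (right). Bars are the technical SD from probe sets of the same gene and dotted lines mark 2-fold; on the right, Nr2f1 and Nr2f2 reach -1.02 and -1.06 after retinoic acid.

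Markers of other cell types moved with retinoic acid, and some were 2-fold apart between the lines on single arrays. In limma no gene of the marker lists or the pluripotency list changed with the line. These are RNA levels of whole cultures, in which fewer cells of a type and less RNA per cell cannot be told apart. With retinoic acid, averaged over the lines, 4 of 17 endoderm, 3 of 19 mesoderm and mesenchyme and 6 of 15 neural progenitor markers rose in limma, while 0, 1 and 1 fell. Of 14 neuron markers 1 rose and 5 fell. The background rates were 4.21% rising and 2.44% falling. After retinoic acid, 5 of 19 mesoderm and mesenchyme markers and 2 of 17 endoderm markers were 2-fold lower in the Ctcfl line. In either list 0 were higher. The background for this comparison was 0.399% lower and 0.83% higher. In the pluripotency list 8 of 34 were 2-fold higher and 0 lower. Among them were Lefty1 (log2 2.70), Dppa2 (2.53) and the signalling gene Nodal (1.62). The summed linear signal of that list was 18410 in wild type and 29760 in the Ctcfl line, against 36590 and 43930 in undifferentiated cells. Lefty1, part of these sums, was at log2 8.70 and 12.87 in the Ctcfl line, undifferentiated first. The sums therefore do not measure only signal kept from undifferentiated cells. The summed linear signal of the mesoderm and mesenchyme list was 8064 in wild type and 4429 in the Ctcfl line, and that of the endoderm list 9834 and 7236. In undifferentiated cells the sums were 3635 and 4037 for the first list and 4416 and 4448 for the second.

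Osr1, a factor of intermediate mesoderm, and the matrix gene Dcn differed by log2 -2.10 and -1.83 in that comparison. The matrix genes Dcn, Lum and Postn were below log2 6 in undifferentiated cells of both lines, and Lum also in the Ctcfl line after retinoic acid. Of 15 neural progenitor markers, 1 was 2-fold higher and 0 lower in the Ctcfl line after retinoic acid, with sums of 18640 in wild type and 16490 in the Ctcfl line, against 11550 and 11620 before. Of 14 neuron markers, 1 was higher and 1 lower, with sums of 4602 and 4081, against 8187 and 7589 before. The part of these markers in the differences of Nr2f1, Nr2f2 and the other receptors was not tested.

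The genes with the nearest profiles were found by the root mean square distance between centred log2 values over the 4 arrays, for the receptors whose arrays spanned at least log2 1, which were Nr2f1 and Nr2f2. Among 15681 genes the nearest to Nr2f1 was Pax6, a regulator of the neural tube and eye, at a distance of 0.094. Pax6 was at log2 7.25 and 9.47 in wild type and 7.55 and 8.63 in the Ctcfl line. P4ha3, a collagen prolyl hydroxylase gene, Ccnd2, a cyclin gene, and the imprinted zinc finger gene Zim1 followed at 0.0998, 0.139 and 0.157.

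For Nr2f2 the nearest was Meox1, a homeobox gene of the somites, at 0.131, with signals of log2 7.05 and 9.73 in wild type and 6.98 and 8.92 in the Ctcfl line. Phlda1, the growth factor gene Bmp4 and the ion channel gene Asic2 followed at 0.154, 0.199 and 0.218. Pax6 and Meox1 also stand in the neural progenitor and mesoderm marker lists. Nr2f1 and Nr2f2 lay 0.468 apart, where Nr2f1 was at place 64 of the genes nearest to Nr2f2 and Nr2f2 at place 176 of those nearest to Nr2f1. With 4 arrays such a list describes a shape and no more.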

How the data were processed

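The authors deposited log2 values per probe set, made with RMA in Expression Console per the labels. The submitters' processing notes name Transcriptome Analysis Console as well. Software versions and the genome build are not given in the sources used here. The values were used without renormalizing.

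Of 41345 probe sets, 23521 carried 1 symbol, 1814 carried several and 16010 had no entry. The brightest single-symbol probe set on average stood for a gene, and genes under log2 6 on all 4 arrays were left out. Single-array differences carry no test. Averaged effects of retinoic acid and of the line were estimated with limma 3.58.1 in R 4.3.3 (lmFit, eBayes, additive terms, prior of 5.49 degrees of freedom), two-sided, with Benjamini-Hochberg adjustment over 18310 genes and a threshold of 0.05. The number of arrays limits the precision.

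The receptors and all gene lists were chosen with earlier results of these data known. Named genes were the receptors, Pou5f1 and Ctcfl, the strongest and called genes of each list, and the 4 nearest profiles. Gdf9, Bmp15, Lefty1, Lum and Postn were named after their values were seen. Motifs were searched as exact letters. Alternatives were to keep all genes, to raise the filter to log2 7, quantile normalization, the mean of probe sets, array centring, a 3-fold threshold and a limma prior with a trend on mean expression.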

Additional observations from a re-analysis of the deposited data

Results flagged for a closer look

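In 3 of 7 receptors the Ctcfl line was above wild type in undifferentiated cells and below it after retinoic acid, with 1 array per condition. The log2 differences were 0.48 and -1.02 for Nr2f1, 0.07 and -0.63 for Nr5a2, and 0.15 and -0.06 for Nr2c1, undifferentiated first. The difference between the states was not tested, and the share of all genes with this pattern was not counted. For Nr2c1 both values are smaller than the technical SD between probe sets of the same gene, 0.262 in undifferentiated cells and 0.226 after retinoic acid, and for Nr5a2 the first is.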

How the results depend on the processing

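Nr2f2 passed for retinoic acid in limma under all 5 alternatives to that fit. Of these only quantile normalization altered its effect (log2 2.31 in place of 2.36). The others altered only the variance prior or the adjustment. With no filter on low signals 1 receptor, Nr2f2, passed in place of 3; 22180 genes then shared the adjustment. With a variance prior that follows mean expression 2 passed, Nr2f1 and Nr2f2. With a 3-fold threshold 0 receptors were apart between the lines after retinoic acid in place of 2, and 0 in the difference of responses in place of 1, while the counts for retinoic acid within each line stayed at 2 and 1. No receptor passed for the line under any alternative run. Over all genes the calls for the line were 8, and 14 rose and 10 fell with quantile normalization and 9 rose and 6 fell with the variance prior that follows mean expression; genes falling with retinoic acid were 447, and 678 with quantile normalization. Centring the arrays on their medians shifted the retinoic acid differences of the Ctcfl line by log2 -0.12, and every difference of the 7 receptors and Pou5f1 moved by less than its technical SD. The line difference of Pou5f1 after retinoic acid, which is near 0, turned from log2 0.04 to -0.04. No paired analysis was possible because each group has 1 array, so replicate numbers pair nothing; the additive fit already sets the 2 arrays of a line against each other. With single arrays, differences between cultures cannot be told from differences between conditions.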
